A study of Homo sapiens with 9 samples.

Results

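The DNAJ genes encode the HSP40 co-chaperones, the J-domain partners of HSP70. Members were taken by name: every gene whose symbol is DNAJ followed by A, B or C, a number and at most 1 further letter. Of 61853 genes listed, 45 met this rule, with 4 in class A, 13 in class B and 28 in class C. They lie on 19 chromosomes. DNAJB3, an annotated pseudogene, meets the rule and is a member. Other pseudogenes, antisense RNAs and read-through genes with DNAJ in their names are not members and are described apart.

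293T, the cell line used, derives from human embryonic kidney and expresses the large T antigen of SV40. Libraries of rRNA-depleted total RNA came from cells given the DIS3-sh1 shRNA, labelled as a DIS3 knockdown, and from cells given the Scramble shRNA, labelled as wild type, with 3 libraries in each group. DIS3 is the catalytic nuclease of the nuclear RNA exosome. The labels give no time after shRNA delivery, no dose and no selection, and they do not say whether the replicates were separate cultures, so p-values measure only the spread between these libraries. DIS3-sh2, the other DIS3 shRNA of the series, is not analysed here, so a change common to DIS3 shRNAs and a change particular to DIS3-sh1 cannot be told apart.

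J-domain proteins bind unfolded or partly folded proteins, hand them to HSP70 and trigger ATP hydrolysis by HSP70 through the J domain. Nucleotide exchange factors then release ADP and the client. Class A proteins have a J domain, a glycine- and phenylalanine-rich stretch and a zinc finger. Class B proteins lack the zinc finger, and class C proteins share only the J domain and work at many places, from the spliceosome to mitochondria. Several class A and B genes are targets of the heat shock factor HSF1, which binds inverted repeats of the letters GAA and TTC.

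Promoter windows are shown for DNAJA1, DNAJB6 and DNAJB1, the lower members whose windows hold heat shock letters, and for DNAJC18, a higher member whose window holds none. They are not typical of a direction: 3 of 21 lower members and 1 of the 11 higher members with a window (DNAJC6) held such letters. The windows are RefSeq's on GRCh38.p14, from 250 bases before to 50 bases after a transcription start, 5′ to 3′ on the gene's strand. Capitals mark GAANNTTC, a pair of heat shock units that reads the same on both strands, and its extension to 3 units, the pair followed after 2 bases by a further GAA, searched on both strands. Each longer match contains the shorter one.
DNAJA1, chr9:33025023-33025322, plus strand: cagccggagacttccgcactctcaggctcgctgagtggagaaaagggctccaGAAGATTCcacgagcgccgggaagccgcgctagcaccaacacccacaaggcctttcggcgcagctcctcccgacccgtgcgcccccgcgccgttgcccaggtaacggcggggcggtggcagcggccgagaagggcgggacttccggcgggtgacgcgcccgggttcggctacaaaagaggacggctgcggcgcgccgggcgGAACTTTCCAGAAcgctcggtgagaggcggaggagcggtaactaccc
DNAJB6, chr7:157336754-157337053, plus strand: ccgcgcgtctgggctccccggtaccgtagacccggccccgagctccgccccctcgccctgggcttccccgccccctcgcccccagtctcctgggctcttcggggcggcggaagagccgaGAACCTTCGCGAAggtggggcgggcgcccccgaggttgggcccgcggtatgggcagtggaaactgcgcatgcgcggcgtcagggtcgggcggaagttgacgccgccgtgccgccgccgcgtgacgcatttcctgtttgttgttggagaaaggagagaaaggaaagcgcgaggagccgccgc
DNAJB1, chr19:14518348-14518647, minus strand: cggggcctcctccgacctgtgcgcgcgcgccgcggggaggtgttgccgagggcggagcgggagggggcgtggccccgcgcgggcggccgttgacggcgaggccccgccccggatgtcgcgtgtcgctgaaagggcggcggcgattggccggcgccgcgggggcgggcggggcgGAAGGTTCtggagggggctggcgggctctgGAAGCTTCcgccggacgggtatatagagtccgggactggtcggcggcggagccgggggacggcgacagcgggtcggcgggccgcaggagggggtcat
DNAJC18, chr5:139439476-139439775, minus strand: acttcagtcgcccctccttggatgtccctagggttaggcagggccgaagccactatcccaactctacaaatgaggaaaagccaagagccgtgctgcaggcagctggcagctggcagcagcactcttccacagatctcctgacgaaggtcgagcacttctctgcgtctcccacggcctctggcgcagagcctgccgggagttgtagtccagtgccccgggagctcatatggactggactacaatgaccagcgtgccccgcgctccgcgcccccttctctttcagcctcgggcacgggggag

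The pair GAANNTTC occurred in the windows of 6 of the 40 members with a window: DNAJA1, DNAJA4, DNAJB1, DNAJB6, DNAJB7 and DNAJC6. Over all genes with a window it occurred in 8.21% of 27305 genes. The extension to 3 units occurred in DNAJA1 and DNAJB6, against 0.608% of all genes. In DNAJA1 the longer match began 3 bases after the start and the other pair 198 bases before it. In DNAJB1 the pairs began 77 and 47 bases before the start of the window shown, and a further DNAJB1 window held the pair 1 base after its own start. In DNAJB6 the longer match began 131 bases before the start. The windows of DNAJC18 and of 33 other members held no such letters. The ER stress element, CCAAT and CCACG with 9 bases between them on either strand, occurred in 0 member windows, against 0.0916% of all genes. A match describes the letters only and does not show that a factor binds there. DNAJB3, DNAJC1, DNAJC5B, DNAJC22 and DNAJC24 had no entry.

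The libraries held 19800892 to 21100677 counts in DIS3-sh1 and 20722775 to 23532148 in Scramble, so a level of 1 CPM (counts scaled to a common library size with TMM) rests on 20.05 to 23.22 counts in a library. DIS3 measured 26.6, 27.8 and 27.9 CPM in DIS3-sh1 and 176, 186 and 177 CPM in Scramble, as the labels say. DIS3-sh1 replicate 1 stood apart within its group. A chi-square of counts over genes, per degree of freedom, was 5.71 and 5.80 between it and replicates 2 and 3, and 1.61 between those 2. The share of mitochondrial counts was 2.78%, 3.42% and 3.47% in DIS3-sh1 replicates 1 to 3 and 2.20% to 2.23% in Scramble, so it was higher in every DIS3-sh1 library. The share of small structural RNAs was 7.58% to 8.66% in DIS3-sh1 and 4.48% to 4.67% in Scramble, and the part of either share in the results was not tested. Of the 293T genes looked at, VIM had 1284 to 1316 CPM in DIS3-sh1 and 1212 to 1228 CPM in Scramble, KRT18 57.8 to 60.9 and 47.1 to 50.9 CPM, and NEFM 63.1 to 67.6 and 69.5 to 74.6 CPM. Markers among them moved with the group: KRT8, a keratin of simple epithelia, had 31.8 to 33.4 CPM in DIS3-sh1 and 4.48 to 4.89 CPM in Scramble (log2 fold change 2.81 ± 0.09), and PAX2, a kidney lineage gene, 4.05 to 4.75 and 1.10 to 2.28 CPM (1.36 ± 0.20). LHX1, also of the kidney lineage, had at most 0.698 CPM in any library. The part of these marker changes in the results was not tested. PTPRC, ALB and DES, markers of blood, liver and muscle, were at most 0.286 CPM. Two-sided tests were made with edgeR's quasi-likelihood method over 19591 genes with Benjamini-Hochberg adjustment, and a gene is called at an adjusted p under 0.05. Across all genes tested, 67.0% were called, 34.5% higher and 32.6% lower in DIS3-sh1. In these bulk values less RNA per cell and fewer cells with the RNA cannot be told apart.

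In DIS3-sh1 the DNAJ family changed in both directions. Each member with a mean of at least 50 CPM, among them DNAJA1, DNAJB1 and DNAJC8, was lower. Of 45 members, 39 passed the filter on low counts and were tested. In DIS3-sh1, 14 were called higher, 21 lower and 4 were not called, so 35.9% of the tested members rose and 53.8% fell. Without DIS3-sh1 replicate 1 the counts were 13 and 19. Of tested coding genes 74.9% were called. The shares of tested coding genes were 36.2% higher and 38.7% lower, so the share of members that rose lay at the background and the share that fell above it. The median log2 fold change was -0.21 for the members, against 0.02 for all genes tested and -0.01 for coding genes. Changes of at least 2-fold were called for 4 higher members (DNAJB13, DNAJC18, DNAJC4 and DNAJC22) and 3 lower ones (DNAJC15, DNAJA1 and DNAJB1), where 10.1% and 3.94% of all genes tested moved as far. DIS3-sh1 and Scramble libraries were fully separate in 35 of the 39 members, 15 higher and 20 lower, against 69.8% of all genes tested and 76.6% of coding genes.

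**Figure D1:**
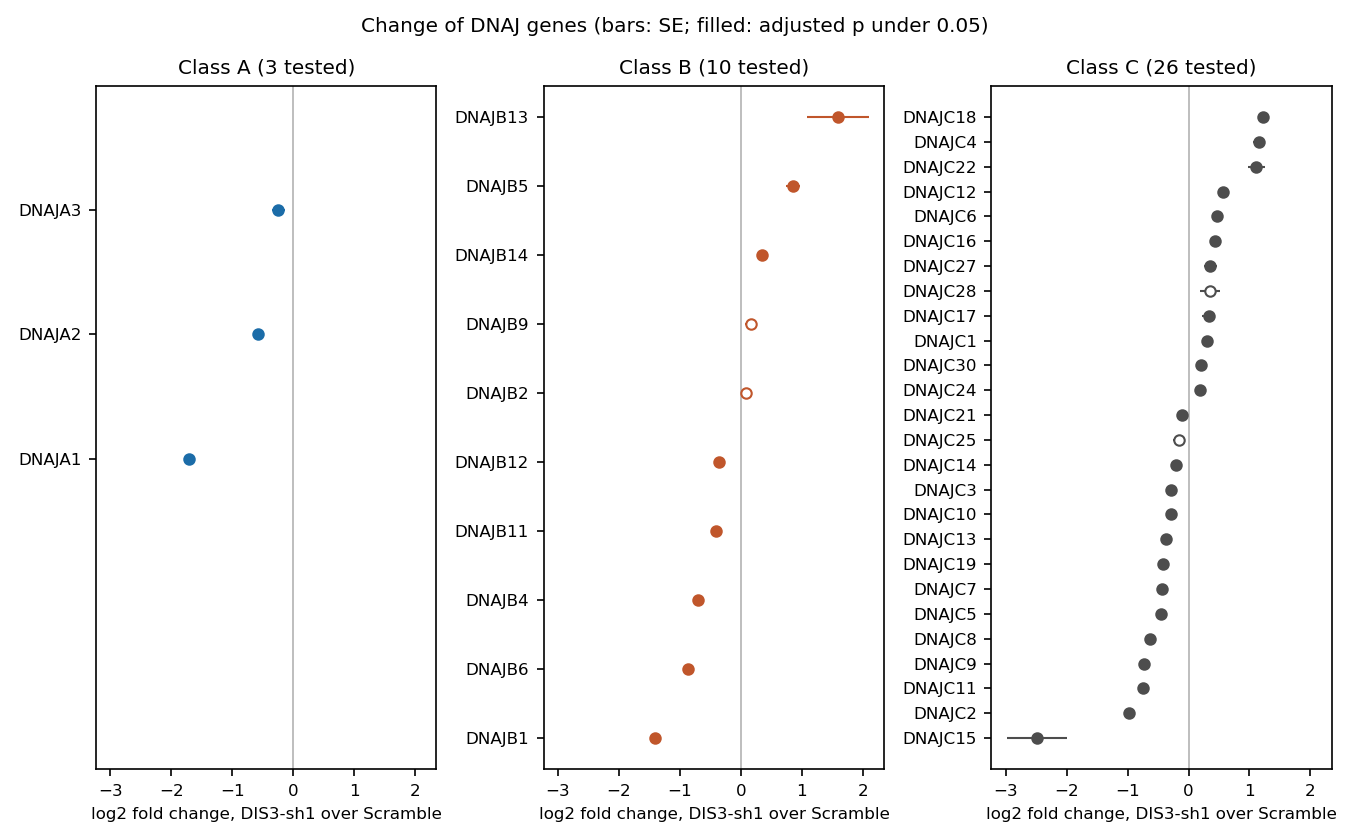
Log2 fold change (DIS3-sh1 over Scramble) of the 39 tested DNAJ genes by class, with the standard error as a bar. Filled points have an adjusted p under 0.05. Class A lies wholly below 0, and classes B and C run from -1.40 to 1.59 and from -2.49 to 1.22.

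The classes were set side by side without a test, since they hold few genes. In class A, 3 of 3 tested members fell and 0 rose, with a median log2 fold change of -0.58. DNAJA1 and DNAJA2 had means of 200 and 100 CPM over all libraries. All 15 members with a mean of at least 50 CPM fell, also with a median of -0.58. The third class A member, DNAJA3, lost its call in 7 of the 12 alternatives described below. In class B, 5 of 10 fell and 3 rose, with a median of -0.13. In class C, 13 of 26 fell and 11 rose, also with a median of -0.13. With upper-quartile scaling, which puts the median of all genes at 0.10 in place of 0.02, the class medians were -0.50, -0.05 and -0.05.

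Among the class A genes, whose products are general folding co-chaperones, DNAJA1 fell most. DNAJA1 (chromosome 9, 33025211 to 33039907, plus strand, hg38) encodes a farnesylated cytosolic co-chaperone. It measured 90.6, 97.4 and 93.7 CPM in the DIS3-sh1 libraries and 305, 308 and 308 CPM in the Scramble libraries. The highest DIS3-sh1 library was far below the lowest Scramble library. The log2 fold change was -1.71 ± 0.03 (SE, edgeR, adjusted p = 2.99e-28). DNAJA2, its cytosolic paralog (chromosome 16, 46955362 to 46973788, minus strand), had 77.0, 82.4 and 82.3 CPM in DIS3-sh1 and 117, 123 and 120 CPM in Scramble. It fell less, by 0.58 ± 0.04 on the log2 scale, again with no overlap of the groups. DNAJA3, the mitochondrial class A protein, had 7.20, 8.43 and 8.76 CPM in DIS3-sh1 and 9.13, 10.1 and 9.59 CPM in Scramble. These groups are close, and its log2 fold change of -0.24 ± 0.11 was called only narrowly (adjusted p = 0.0478). It did not pass under upper-quartile scaling (adjusted p = 0.188), no filter (0.0679) or DESeq2 (0.0975), nor when DIS3-sh1 replicates 1 (0.235) or 2 (0.0608) or Scramble replicates 2 (0.135) or 3 (0.0773) were left out. DNAJA4, another cytosolic paralog, had 2 counts in DIS3-sh1 replicate 2 and 0 in every other library, and was not tested. A count of 0 allows up to 0.150 CPM in the shallowest library, for counting error only.

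Among tested class B cytosolic co-chaperones, DNAJB1, DNAJB6 and DNAJB4 fell, DNAJB5 rose and DNAJB2 was not called. With the cytosolic members of the other classes, 6 of 8 fell and 1 rose, where 38.7% of coding genes fell. At a mean of at least 50 CPM 5 of 5 fell, where 58.7% of coding genes fell. DNAJB1, the stress-inducible HSP40 that works with HSP70 in refolding and disaggregation, fell most in class B. DNAJB1 (chromosome 19, 14514770 to 14529770, minus strand) had 50.9, 45.7 and 45.3 CPM in DIS3-sh1 and 119, 126 and 128 CPM in Scramble. Every DIS3-sh1 library lay below every Scramble library, with DIS3-sh1 replicate 1 the highest of its group. The log2 fold change was -1.40 ± 0.05 (adjusted p = 4.70e-22). DNAJB6, a suppressor of polyglutamine aggregation (chromosome 7, 157335381 to 157417439, plus strand), had 69.9, 73.7 and 68.5 CPM in DIS3-sh1 and 126, 132 and 130 CPM in Scramble. It fell by 0.87 ± 0.04 with tight libraries in both groups. Its processed pseudogene DNAJB6P1 was also listed, at 12.0 ± 1.01 CPM in DIS3-sh1 and 19.2 ± 0.801 CPM in Scramble (SD, n = 3 each), and reads may be split between them. DNAJB4, a paralog of DNAJB1, had 20.3, 21.3 and 23.8 CPM in DIS3-sh1 and 34.8, 36.7 and 35.1 CPM in Scramble, a fall of 0.70 ± 0.07.

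DNAJB5, the third gene of the DNAJB1 branch, went the other way. It had 13.8, 12.4 and 13.2 CPM in DIS3-sh1 and 7.49, 8.01 and 6.16 CPM in Scramble. All DIS3-sh1 libraries were above all Scramble libraries, and the log2 fold change was 0.86 ± 0.11 (adjusted p = 1.55e-08). DNAJB2, a ubiquitin-binding co-chaperone known from neurons, had 16, 16.6 and 15.4 CPM in DIS3-sh1 and 15.3, 14.4 and 15.2 CPM in Scramble. The groups did not overlap but lay close together, and the gene was not called (log2 fold change 0.09 ± 0.08, adjusted p = 0.312). DNAJB13, a protein of sperm flagella and cilia, had 0.612, 0.997 and 0.666 CPM in DIS3-sh1 and 0.345, 0.381 and 0 CPM in Scramble. Its log2 fold change of 1.59 ± 0.51 (adjusted p = 0.00752) rests on at most 20 counts in a library, and an antisense gene overlaps its exons. Leaving out DIS3-sh1 replicate 2 gave 1.35 (edgeR, adjusted p = 0.0520) and leaving out Scramble replicate 3 gave 1.04 (0.0580), neither of which passes. With limma-voom it was 2.27. The testis genes DNAJB7 and DNAJB8 and the annotated pseudogene DNAJB3 had 0 counts in every library.

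**Figure D2:**
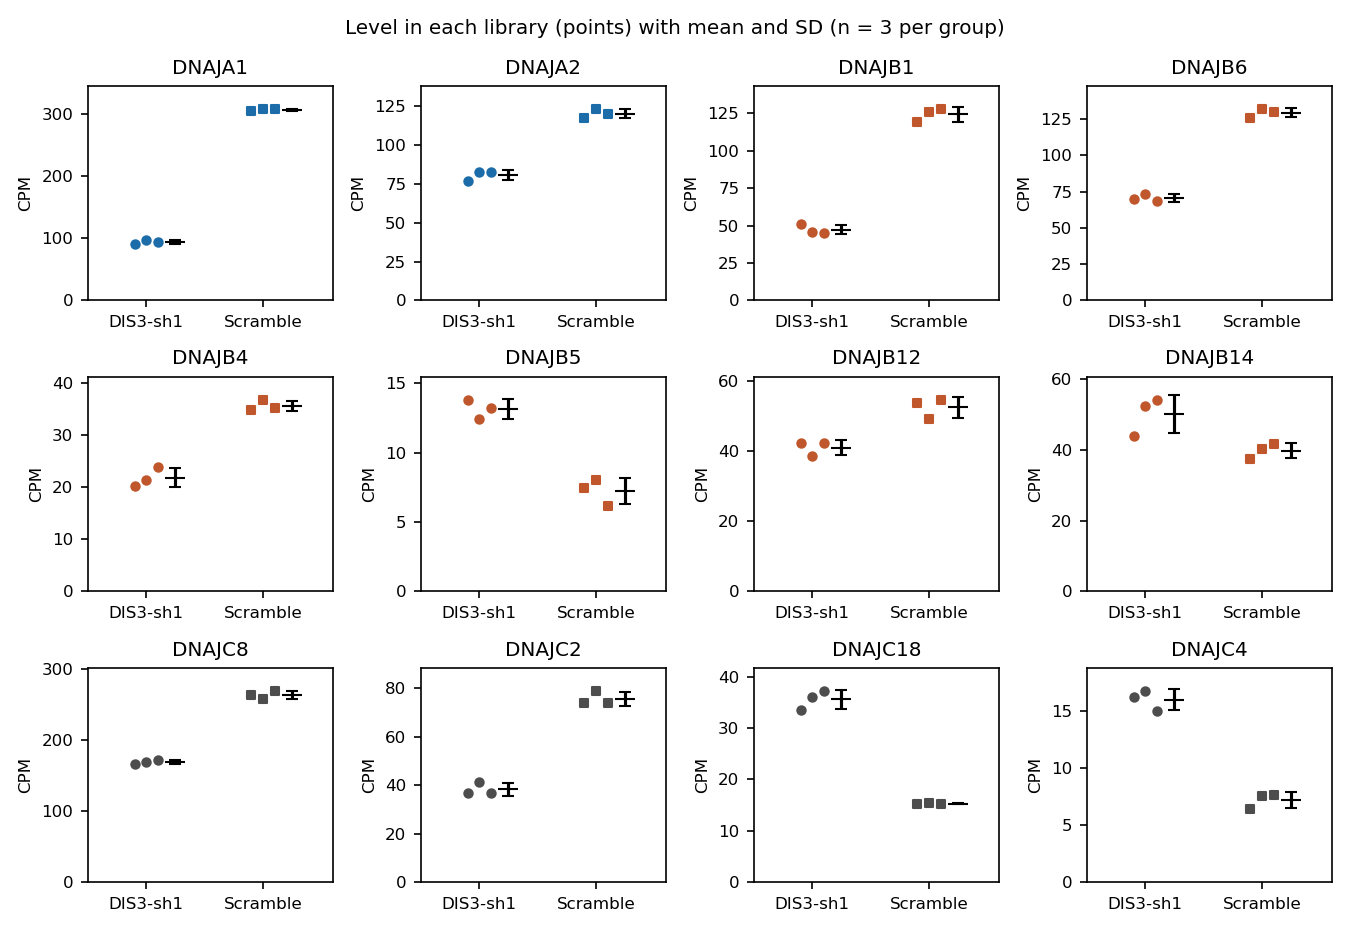
Level in CPM of 12 DNAJ genes in each DIS3-sh1 (circles) and Scramble (squares) library, with the mean and SD of 3 libraries beside the points, each panel on its own scale from 0. DNAJA1 sits between 90.6 and 97.4 CPM in DIS3-sh1 and between 305 and 308 CPM in Scramble, and DNAJB5, DNAJB14, DNAJC18 and DNAJC4 are higher in DIS3-sh1.

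Ratios of related genes within a library do not depend on how the libraries were scaled, and 6 such ratios of deposited counts were compared. The ratio of DNAJA1 to DNAJA2 was 1.18, 1.18 and 1.14 in DIS3-sh1 and 2.61, 2.50 and 2.56 in Scramble, a difference of -1.13 in mean log2 ratio. DNAJB1 over DNAJB5 was 3.68, 3.68 and 3.42 in DIS3-sh1 and 15.9, 15.8 and 20.8 in Scramble, the largest shift of the 6 (-2.27). DNAJB1 over DNAJB4 was 2.50, 2.14 and 1.90 in DIS3-sh1 and 3.43, 3.44 and 3.66 in Scramble (-0.70). So DNAJB1 lost ground to both of its relatives. DNAJB4 over DNAJB5 differed by -1.58 and DNAJB6 over DNAJB2 by -0.97. DNAJB12 over DNAJB14, a pair of ER membrane co-chaperones, was 0.965, 0.738 and 0.782 in DIS3-sh1 and 1.44, 1.22 and 1.32 in Scramble (-0.69), which turned the order of their counts round. The gene with the lower log2 fold change was put on top in each pair, so the shared direction of the 6 is not a result. The ratios among DNAJB1, DNAJB4 and DNAJB5 are also not independent of each other. In each of the 6 ratios the groups did not overlap, as in 69.8% of all single genes tested. Ratios of other gene pairs were not computed. Each two-sided exact permutation test gave p = 0.1, the smallest that 3 against 3 libraries allow (0.1 after adjustment over the 6). This test therefore cannot bring a ratio under 0.05 with 3 libraries a group. Unequal change within a pair is shown by these ratios, but not how far either gene of the pair changed by itself.

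**Figure D3:**
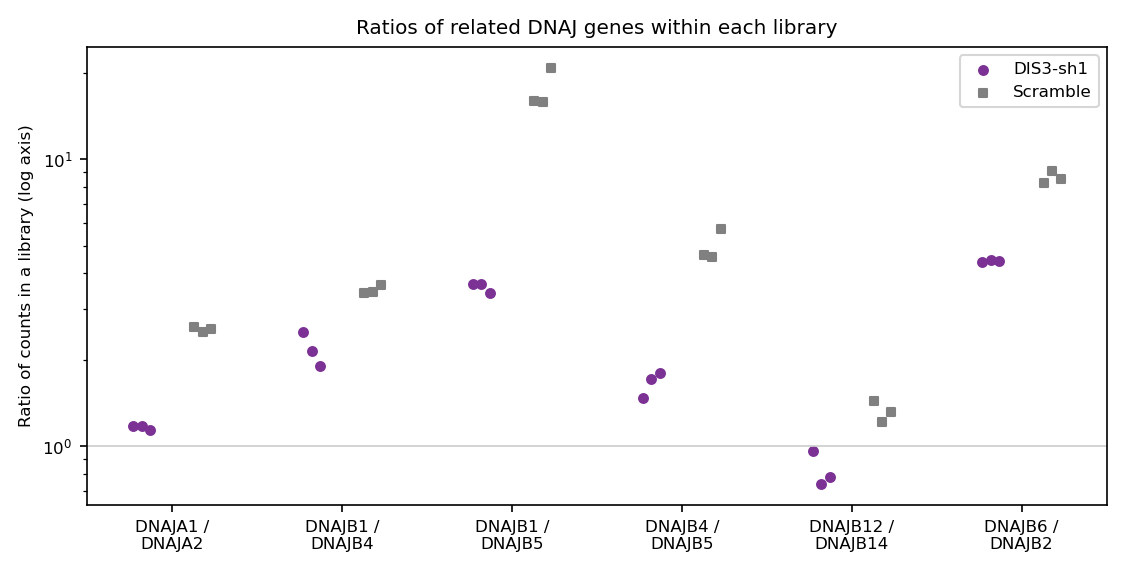
Ratio of the counts of related DNAJ genes within each DIS3-sh1 (circles) and Scramble (squares) library, on a log axis. All 6 ratios are lower in each DIS3-sh1 library than in any Scramble library. The gene with the lower log2 fold change is on top in each, which sets this shared direction. As counts not divided by length, DNAJB12 over DNAJB14 lies below 1 in DIS3-sh1 and above 1 in Scramble.

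Co-chaperones of the endoplasmic reticulum were split, with 4 of 10 higher, 4 lower and 2 not called, and a median log2 fold change of 0.00, close to the 36.2% higher and 38.7% lower among coding genes. DNAJB11, the ERdj3 partner of BiP, fell to 29.4 ± 0.608 CPM in DIS3-sh1, set against 39.1 ± 1.73 CPM in Scramble (log2 fold change -0.41 ± 0.06). DNAJC3, the p58IPK inhibitor of the kinase PERK, and DNAJC10, the disulfide reductase ERdj5, each fell by 0.29, DNAJC10 at 131 ± 2.57 CPM in DIS3-sh1 and 161 ± 3.35 CPM in Scramble. DNAJB12 had 42.4, 38.5 and 42.2 CPM in DIS3-sh1 and 53.8, 49.1 and 54.6 CPM in Scramble and fell by 0.36 ± 0.06. Its paralog DNAJB14 had 43.9, 52.2 and 54.0 CPM in DIS3-sh1 and 37.3, 40.1 and 41.5 CPM in Scramble and was higher, at 0.34 ± 0.06 on the log2 scale.

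The strongest increase among well measured members was in DNAJC18, a transmembrane J protein of the same ER membrane group. DNAJC18 (chromosome 5, 139408588 to 139444491, minus strand) had 33.6, 36.1 and 37.2 CPM in DIS3-sh1 and 15.3, 15.5 and 15.2 CPM in Scramble. The level more than doubled in each DIS3-sh1 library, and the log2 fold change was 1.22 ± 0.07 (adjusted p = 3.33e-16). Its exons share 252 bases with AC142391.1 on the same strand, so reads may be split. DNAJC16 rose by 0.44 ± 0.06, and DNAJC1, the ERdj1 protein that binds ribosomes at the ER, by 0.30 ± 0.06. DNAJB9, the ERdj4 protein that brings BiP to the stress sensor IRE1, had 14.4 ± 0.649 CPM in DIS3-sh1 and 12.9 ± 0.718 CPM in Scramble and was not called (adjusted p = 0.1), but was with upper-quartile scaling (0.0150). DNAJC25 had 13.8 ± 0.861 CPM in DIS3-sh1 and 15.3 ± 1.21 CPM in Scramble and was not called (adjusted p = 0.106), except without Scramble replicate 3 (0.0402). Its read-through with GNG10, which shares exons with it, fell by 0.58 ± 0.08.

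Of 5 members that work in the nucleus or at the ribosome, 4 fell and 1 rose, with a median of -0.64. The 4 that fell had a mean of at least 50 CPM, a level at which 58.7% of coding genes and every DNAJ member fell. DNAJC8, a spliceosome-associated protein, had the highest level per length of principal transcript in the family. DNAJC8 (chromosome 1, 28199456 to 28233025, minus strand) had 167, 169 and 172 CPM in DIS3-sh1 and 263, 258 and 269 CPM in Scramble, a fall of 0.64 ± 0.03 (adjusted p = 2.81e-18). The groups lay far apart relative to their spread. DNAJC2, the ribosome-bound MPP11 protein (chromosome 7, 103312474 to 103344873, minus strand), had 36.6, 41.3 and 36.9 CPM in DIS3-sh1 and 73.7, 78.8 and 74.0 CPM in Scramble, a fall of 0.98 ± 0.05. Its HSP70 partner in the ribosome-associated complex, HSPA14, also fell, to 27.0 ± 0.565 CPM in DIS3-sh1, set against 63.1 ± 1.16 CPM in Scramble (log2 fold change -1.23 ± 0.05). DNAJC9, a chaperone of histones H3 and H4, had 39.7, 42.1 and 43.8 CPM in DIS3-sh1 and 71.6, 67.4 and 69.6 CPM in Scramble and fell by 0.73 ± 0.05. DNAJC17, a nuclear protein linked to splicing, rose by 0.33 ± 0.11, but its exons overlap GCHFR and other genes on the opposite strand. Exons of DNAJC2 (with PMPCB) and of DNAJC9 (with FAM149B1) also overlap genes on the opposite strand.

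DNAJC21, a factor in the maturation of the large ribosomal subunit, was at the edge of the test. It had 68.1, 68.8 and 72.2 CPM in DIS3-sh1 and 72.1, 77.6 and 74.8 CPM in Scramble, so the groups overlapped. The log2 fold change of -0.10 ± 0.04 was called (adjusted p = 0.0438). It did not pass under upper-quartile scaling (0.685) or DESeq2 (0.0529), nor when DIS3-sh1 replicates 1 (0.114) or 2 (0.119) or Scramble replicates 2 (0.166) or 3 (0.0722) were left out.

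Mitochondrial members went both ways, with 4 of 7 lower, 2 higher and 1 not called, where 38.7% of coding genes were lower and 36.2% higher. The calls of DNAJA3 (lower) and DNAJC30 (higher) among them were narrow. DNAJC11, a protein of the mitochondrial outer membrane and cristae junctions, had 73.5, 67.6 and 68.9 CPM in DIS3-sh1 and 124, 116 and 114 CPM in Scramble, and fell by 0.75 ± 0.04. Its exons overlap THAP3 on the opposite strand. DNAJC19, a subunit of the protein import motor, fell to 15.4 ± 0.385 CPM in DIS3-sh1, set against 20.7 ± 2.35 CPM in Scramble (log2 fold change -0.42 ± 0.08). The largest fitted fall of the family was in DNAJC15, the MCJ protein of the inner membrane, at very low levels. It had 5, 3 and 2 counts in DIS3-sh1 and 16, 28 and 16 counts in Scramble, or 0.235, 0.150 and 0.0952 CPM in DIS3-sh1 and 0.689, 1.33 and 0.783 CPM in Scramble. The groups did not overlap, and the log2 fold change was -2.49 ± 0.49 (adjusted p = 4.28e-05).

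DNAJC4, counted here with the mitochondrial members, had the largest increase of that group. DNAJC4 (chromosome 11, 64230278 to 64234286, plus strand) had 16.3, 16.8 and 15.0 CPM in DIS3-sh1 and 6.46, 7.58 and 7.68 CPM in Scramble, and the log2 fold change was 1.15 ± 0.10 (adjusted p = 8.11e-12). Its exons share 297 bases with NUDT22 on the same strand, so reads may be split. DNAJC30, a mitochondrial protein encoded in the Williams syndrome region, had 14.9, 14.9 and 13.8 CPM in DIS3-sh1 and 14.1, 10.7 and 12.8 CPM in Scramble. The groups overlapped and the call was narrow (log2 fold change 0.21 ± 0.09, adjusted p = 0.0494). It did not pass under RLE scaling (0.0635), no filter (0.0648) or DESeq2 (0.128), nor when DIS3-sh1 replicates 1 (0.0921) or 2 (0.112) or Scramble replicates 2 (0.348) or 3 (0.0831) were left out. DNAJC28 had 4.06 ± 0.143 CPM in DIS3-sh1 and 3.19 ± 0.481 CPM in Scramble and was not called (adjusted p = 0.0567), but was with upper-quartile scaling (0.02) and without Scramble replicate 3 (0.0358).

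Members of vesicle traffic were also split, with 3 of 5 tested lower and 2 higher, against 38.7% and 36.2% of coding genes. DNAJC5, the cysteine string protein of secretory vesicles, had 72.2, 65.7 and 70.7 CPM in DIS3-sh1 and 94.6, 92.7 and 98.0 CPM in Scramble and fell by 0.45 ± 0.04. DNAJC13, the endosomal protein RME-8, fell by 0.37 ± 0.04, and DNAJC14, counted here with this group, by 0.21 ± 0.05. DNAJC6, the neuronal auxilin that removes clathrin coats with HSC70, rose to 47.6 ± 0.704 CPM in DIS3-sh1, set against 34.5 ± 0.656 CPM in Scramble (log2 fold change 0.46 ± 0.05). GAK, the widely expressed auxilin relative whose symbol does not carry the family name, fell to 42.2 ± 0.594 CPM in DIS3-sh1, set against 84.6 ± 3.8 CPM in Scramble (log2 fold change -1.0 ± 0.05). DNAJC27, a Rab-like GTPase with a J domain, rose by 0.36 ± 0.11. DNAJC5G had 8, 7.5 and 4 counts in DIS3-sh1 and 7, 2 and 7 counts in Scramble, DNAJC5B had 1 count in all 6 libraries together, and neither was tested.

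The remaining class C members lie outside these groups. DNAJC7, a tetratricopeptide repeat protein that binds both HSP70 and HSP90, had 106, 109 and 112 CPM in DIS3-sh1 and 151, 150 and 140 CPM in Scramble and fell by 0.43 ± 0.04. DNAJC22 had 9.51, 10.3 and 8.09 CPM in DIS3-sh1 and 4.09, 5.29 and 3.52 CPM in Scramble, and rose by 1.11 ± 0.14 on the log2 scale (adjusted p = 1.87e-08). DNAJC12, a partner of the aromatic amino acid hydroxylases, rose to 17.2 ± 0.259 CPM in DIS3-sh1, set against 11.5 ± 0.943 CPM in Scramble (0.57 ± 0.09). DNAJC24, a protein of diphthamide synthesis, had 30.2, 38.8 and 33.1 CPM in DIS3-sh1 and 27.8, 32.5 and 29.5 CPM in Scramble, which overlap. Its call (0.18 ± 0.08, adjusted p = 0.0318) did not pass under DESeq2 (0.0846), nor when DIS3-sh1 replicate 2 (0.334) or Scramble replicates 1 (0.187) or 3 (0.0977) were left out.

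By CPM, which is not divided by length, members at high levels fell and scarcer ones more often rose. Per kilobase of principal transcript the order differs: DNAJC1, called higher, had rank 8 in DIS3-sh1 and 12 in Scramble. By CPM the higher member DNAJB14 lay just under the limit of 50 used here, at 44.8. Of 15 members with a mean of at least 50 CPM over the 6 libraries, 15 fell and 0 rose, DNAJC21 narrowly as given above. Of coding genes at that level 58.7% fell and 26.3% rose. Of 17 members between 10 and 50 CPM, 10 rose and 4 fell, against 38.4% and 37.1% of coding genes. Of 7 members under 10 CPM, 4 rose and 2 fell, against 45.3% and 15.9%. Spearman's rho between level and log2 fold change was -0.61 over the 39 members and -0.31 over 13816 coding genes. These are descriptions across genes, which share the same libraries and are not replicates.

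**Figure D4:**
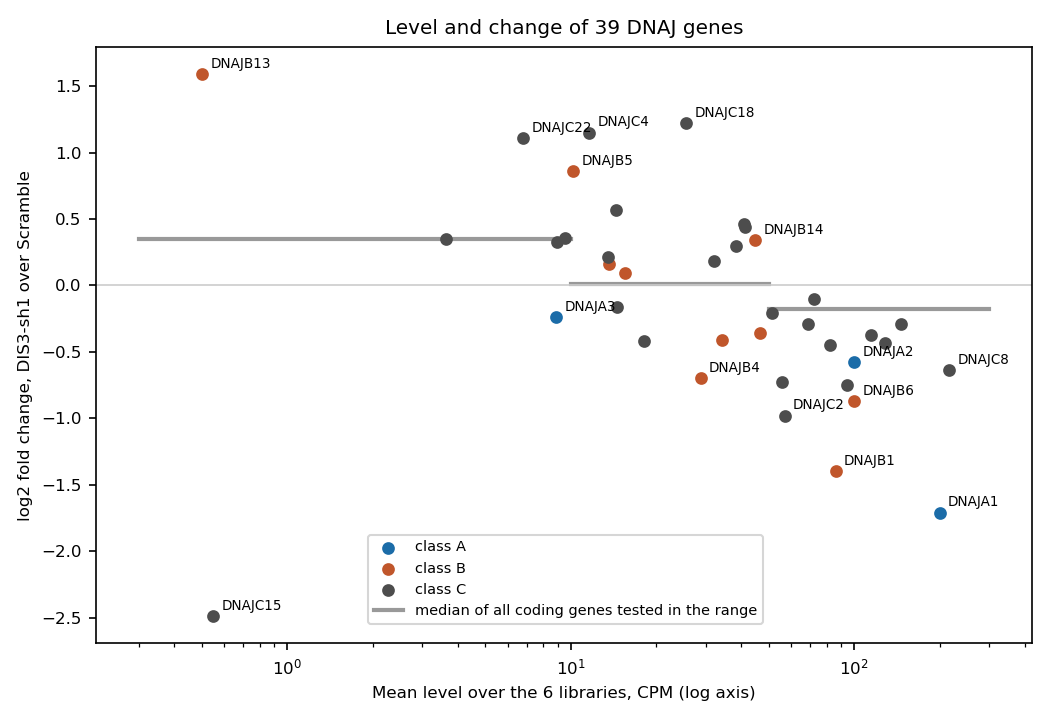
Mean level over the 6 libraries (CPM, log axis) and log2 fold change (DIS3-sh1 over Scramble) of the 39 tested DNAJ genes, coloured by class. Grey lines give the median of all tested coding genes under 10, from 10 to 50 and at least 50 CPM (0.35, 0.01 and -0.18), and every member at 50 CPM or more lies below 0.

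Per length of transcript, the family as a whole took a smaller part of the libraries. Levels were divided by the length of each gene's principal transcript in kilobases and summed. The sum was 568, 588 and 583 CPM per kilobase in DIS3-sh1 and 857, 868 and 867 in Scramble, a ratio of 0.671. Class A summed to 68.2 ± 2.59 CPM per kilobase in DIS3-sh1 and 171 ± 1.98 in Scramble (ratio 0.399), class B to 121 ± 0.920 and 199 ± 4.04 (ratio 0.609), and class C to 391 ± 7.62 and 495 ± 0.123 (ratio 0.790). Class A made up 11.5% to 12.0% of the sum in DIS3-sh1 and 19.7% to 19.9% in Scramble, and class C 67.2% to 67.6% and 57.0% to 57.7%. Most of the class A shift lay in DNAJA1, which alone made up 6.70% to 6.95% of the sum in DIS3-sh1 and 14.9% in Scramble. Without DNAJA1 and DNAJB1 the ratio for the remaining members was 0.764. No p-value was computed for these sums. With the union of all annotated exons as length, the ratios were 0.374 for class A, 0.627 for class B and 0.808 for class C.

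**Figure D5:**
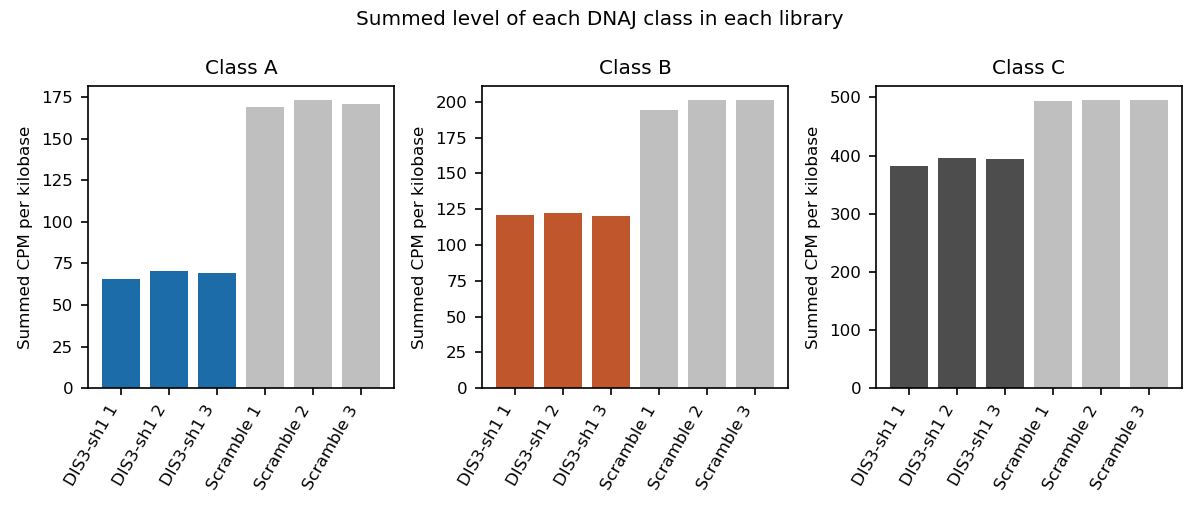
Summed level of DNAJ classes A, B and C in CPM per kilobase of principal transcript, 1 bar per library (coloured, DIS3-sh1; grey, Scramble), with axes from 0. Class A has 65.3 to 70.4 CPM per kilobase in DIS3-sh1 and 169 to 173 in Scramble, and each class is lower in every DIS3-sh1 library.

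The order of levels depended on the length used. Per kilobase of principal transcript, DNAJC8 had rank 1 in both groups, with 96.3 CPM per kilobase in DIS3-sh1 and 150 in Scramble. DNAJA1 had rank 4 in DIS3-sh1 at 39.4 CPM per kilobase, behind DNAJC7 at 53.9 and DNAJB6 at 43.9, and rank 2 in Scramble at 129. DNAJB1 measured 20.9 CPM per kilobase in DIS3-sh1 and 55.1 in Scramble, and DNAJA2 25.8 and 38.5. With the union of exons as length, DNAJA1 had rank 2 in DIS3-sh1 at 34.4 CPM per kilobase and rank 1 in Scramble at 112, and DNAJC8 rank 1 at 58.7 and rank 2 at 91.1. On that length DNAJC7 measured 11.6 CPM per kilobase in DIS3-sh1 and 15.7 in Scramble, and DNAJB6 4.72 and 8.63, so both lay below DNAJA1 in both groups.

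Most listed genes of the HSP70 machines that these proteins serve were lower as well. The lists of HSP70 genes, nucleotide exchange factors, and adaptors and partners were chosen with earlier results of these data known. Their counts therefore describe the listed genes only. Of 9 tested HSP70 genes, 8 fell and 1 rose, with a median log2 fold change of -1.10, where 38.7% of coding genes fell. At a mean of at least 50 CPM, where 58.7% of coding genes fell, 4 of 5 HSP70 genes, 7 of 8 nucleotide exchange factors and 5 of 5 adaptors and partners were lower. HSPA8, the constitutive HSP70, measured 438, 465 and 461 CPM in DIS3-sh1 and 1768, 1761 and 1719 CPM in Scramble. Relative to HSPA8, DNAJA1 stood at 0.203 to 0.209 in DIS3-sh1 and 0.172 to 0.179 in Scramble, as a ratio of CPM, so both genes were much lower and HSPA8 by more. For DNAJB1 this ratio was 0.0982 to 0.116 in DIS3-sh1 and 0.0676 to 0.0747 in Scramble. The member that rose was HSPA13, a microsomal HSP70 relative (0.24 ± 0.05).

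Of 13 nucleotide exchange factors, 11 fell and 2 rose (median -0.85). HSPH1, the HSP110 factor of the cytosol (-2.05 ± 0.03), BAG3, a partner of HSP70 in selective autophagy (-1.16 ± 0.05), and HSPA4, a further HSP110 (-1.04 ± 0.03), fell most. SIL1, the exchange factor of BiP in the ER, rose by 0.68 ± 0.08, and GRPEL2 of mitochondria by 0.13 ± 0.04, while its paralog GRPEL1 fell by 0.88 ± 0.05. All 6 adaptors and partners fell (median -0.71), with STIP1, which links HSP70 to HSP90, at -1.07 ± 0.03 and HSF1 itself at -0.16 ± 0.04. Among J-domain genes named otherwise, GAK and HSCB (-0.39 ± 0.10) fell, and SEC63, the J protein of the ER translocon, was not called (0.04 ± 0.03, adjusted p = 0.340).

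Transcripts next to or copied from the members were listed apart. Of 4 antisense entries, 3 were tested and 2 rose, and of 4 divergent transcripts 2 were tested and both rose. Of all genes tested 34.5% rose, and these transcripts are too few to set against that share or to show a pattern. DNAJA2-DT, which starts beside DNAJA2, rose to 2.33 ± 0.1 CPM in DIS3-sh1, set against 0.511 ± 0.0954 CPM in Scramble (log2 fold change 2.18 ± 0.29, adjusted p = 6.19e-08), while DNAJA2 fell. DNAJC3-DT rose by 0.50 ± 0.13 beside a lower DNAJC3. DNAJC27-AS1 rose by 1.90 ± 0.26, and its exons overlap those of DNAJC27, which also rose. Of 32 pseudogenes, 21 had 0 counts in every library, 6 were tested, 4 fell and 0 rose, where 32.6% of all genes tested fell. The 4 pseudogenes that fell were copies of DNAJB6 and DNAJC8, both of which fell. Of the 39 tested members, 20 share exon sequence with another annotated gene, of which 8 rose and 10 fell, and of the 19 without such overlap 6 rose and 11 fell. The library kit keeps strand, but whether counting used it is not given in the sources used here, and reads of overlapping genes may be mixed.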

How the data were processed

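Total RNA depleted of rRNA of 293T cells was sequenced from libraries made with a stranded kit, per the labels' protocols. The authors deposited estimated counts, 1 per gene and library, made with the tools named below and many of them are fractional. The submitters' processing notes name hg38, featureCounts 1.5.1, HISAT2 2.1.0, Bowtie2 2.3.5 and SAMtools. The sources used here give neither their roles nor the annotation version, the use of strand or how reads matching several places were counted. Of 9 per-sample columns, 3 have names that match no sample label and were not used, so the planned DIS3-sh2 results were not computed and the fit held 6 libraries.

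Symbols came from a table of gene identifiers, and coordinates and lengths from GENCODE 29 on GRCh38. Values were rounded, filtered with filterByExpr and scaled with TMM. They were put through the robust quasi-likelihood F-test of edgeR 4.0.16 (R 4.3.3) with group as the only term. The procedure was also run on simulated counts in which few genes were changed. In these data 67.0% of genes were called, so that run does not show the error rate or the scaling here. Standard errors were taken as the size of the log2 fold change over the root of its F statistic. Members, role groups and partner lists were chosen with earlier results of these data known. Values in every library are given for the 3 largest changes and the 2 highest levels per length in each class and for related pairs, and for some others. Alternatives were RLE and upper-quartile scaling, no filter, DESeq2 1.42.0, limma-voom 3.58.1, the replicate number as a block, and leaving out each library. Standard errors and SDs cover the spread between the 3 libraries of a group, and floors cover counting error only. 1 gene of the partner lists is not reported here.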

Additional observations from a re-analysis of the deposited data

How the results depend on the processing

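Of the 35 called members, 30 kept their direction and their call in all 12 alternatives. The other 5 (DNAJA3, DNAJB13, DNAJC21, DNAJC24 and DNAJC30) lost the call in some, with the same direction throughout. No member changed direction in any of the 12. The number of members called higher was 16 with upper-quartile scaling, 13 with RLE scaling, 12 with DESeq2 and 14 with limma-voom, and the number called lower was 19, 21, 19 and 21. With each library left out in turn, 11 to 14 were higher and 19 to 21 lower. Upper-quartile scaling moved the class medians to -0.50 (A), -0.05 (B) and -0.05 (C). Leaving out each library gave -0.60 to -0.54 for class A, -0.16 to -0.12 for class B and -0.16 to -0.09 for class C. With the replicate number as a block, 14 members were higher and 21 lower, the same counts as without it. Same-numbered libraries had correlations of 0.0578, 0.0323 and -0.00244 in their deviations over 16782 genes. Libraries of unlike number had -0.0527 to 0.0249, below the values of replicates 1 and 2. All are weak, and they do not decide whether the libraries were paired. Fitting only the compared groups is the same fit here, so it was not run separately. Depth limits DNAJC15, DNAJB13 and DNAJC5G, which rest on under 30 counts in any library.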
